A study of Thermothelomyces thermophilus ATCC 42464 with 8 samples.

Results

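Broad domains of trimethylated histone H3 lysine 9 (H3K9me3) inside the chromosomes of the thermophilic fungus M. thermophila were described from ChIP-seq peak lists. A domain was chosen by length and position, as a peak of the WT replicate 2 list of at least 10 kb with every base more than 100 kb from both chromosome ends as the lists show them. This rule gave 289 domains among the 3329 peaks of that list, and 21 further peaks of this length lay nearer to an end and were left out. The lengths, positions and scores of WT replicate 2 are therefore given as a description. The WT strain (ATCC 42464) and the laeA deletion strain ΔlaeA, which lacks the putative methyltransferase LaeA, were grown as mycelium on 2% glucose at 45 °C for 24 h, and 2 ChIP libraries and 2 input libraries were made per strain. The labels name a different catalogue number of the abcam antibody for ΔlaeA than for WT, whereas the ChIP methods name only the number given for WT. As the labels stand, antibody and strain cannot be told apart. The series description names H3K79me3, whereas its title, the labels and the methods name H3K9. Nothing states whether the 2 replicates came from separate cultures.

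H3K9me3 is a mark of heterochromatin, the compact part of the genome that is mostly silent. In Neurospora crassa, a relative of M. thermophila, it is laid down by the methyltransferase DIM-5 and bound by heterochromatin protein 1, and it covers AT-rich remains of transposons at centromeres, near telomeres and at dispersed sites. Such remains arise there through repeat-induced point mutation, a process that mutates duplicated DNA. LaeA is known in Aspergillus as a global regulator of secondary metabolism.

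The lists differ in kind. The replicate 1 lists were called at a p of 0.05 and hold 5846 mostly short peaks in WT and 3054 in ΔlaeA. Before entries of the same peak were joined, they had 10000 and 4132 entries. Whether the round number means that the WT list was cut is not known. Among the replicate 1 peaks whose midpoint lay in a domain the highest −log10 q was 0.87 in both strains, so none of them was past a q of 0.05. For ΔlaeA replicate 2, the list as analysed ends at position 3058073 of chromosome 1. Sequencing depth could not be given because no read numbers were used, and the lists are not scaled to each other. Coordinates are those of the lists, which state no build.

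The 289 domains were 8.68% of the WT replicate 2 peaks but held 45.3% of the peak bases, 5791258 of 12787251 bp. They covered 15.5% of the internal sequence, that is, of all bases more than 100 kb from an end. Their median length was 16395 bp, with quartiles of 12802 and 24441 bp, and the longest had 93549 bp. The 2800 shorter internal peaks had a median length of 1344 bp and covered 6067517 bp, so that about as many bases lay in short peaks as in domains. At the length limit, the 3 shortest domains had 10020, 10047 and 10137 bp with fold enrichments of 4.22, 2.65 and 2.83, and the 3 longest peaks left out had 9968, 9961 and 9955 bp with fold enrichments of 4.13, 3.14 and 2.92. The values on either side of the limit overlapped.

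Every chromosome carried domains, but unevenly. Chromosome 6 had the most per length, with 56 domains that covered 28.4% of its span, followed by chromosome 5 with 47 domains and 23.9%. Chromosome 4 had 42 domains on 17.5%, chromosome 3 had 33 on 12.8% and chromosome 7 had 27 on 12.7%. Chromosome 1, the longest, had 60 domains but only 10.4% of its span in them, and chromosome 2 was lowest with 24 domains and 8.24%. Chromosomes 5 and 6 thus carried 10.8 and 13.6 domains per Mb, against 4.4 on chromosome 2. Median lengths were alike, between 14965 bp on chromosome 2 and 18012 bp on chromosome 3, so that the chromosomes differed mainly in the number of domains.

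**Figure D1:**
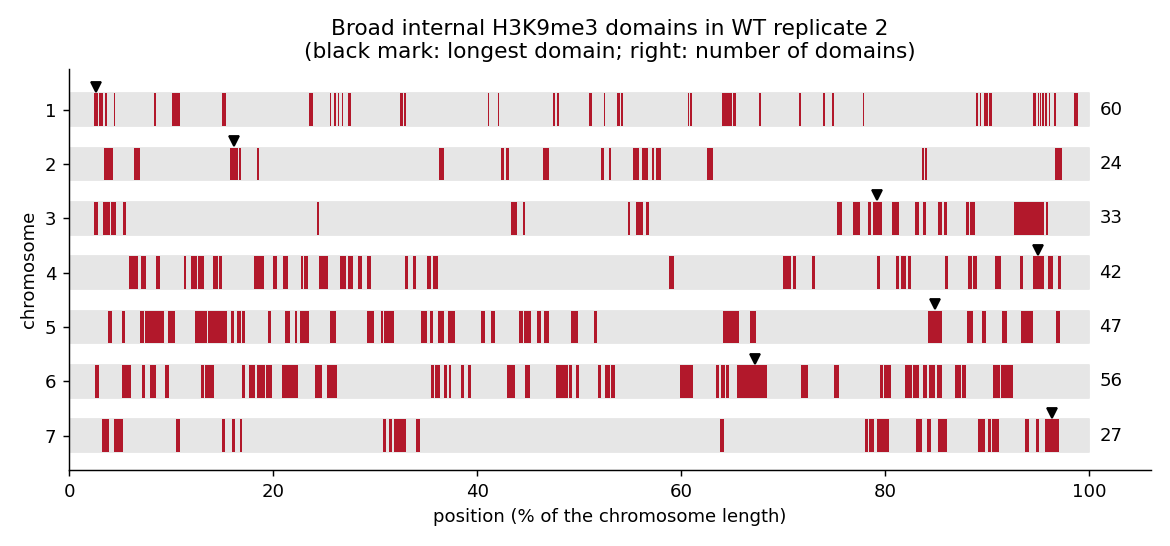
Position of the 289 domains (red) along the 7 chromosomes (grey bars), in percent of each chromosome's length, with a black mark above the longest domain of each and the number of domains at the right. Chromosomes 5 and 6 are the most densely covered by domains, and chromosome 2 has 24 domains with long stretches without a domain. Shorter peaks are not drawn.

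The longest domain of the genome lay on chromosome 6 from 2729798 to 2823346 (93549 bp), at 67.3% of the chromosome length. Its fold enrichment of 3.02 was below the median of all domains, and a second domain ended 435 bp before it, so that both together spanned 119782 bp. The longest domain of chromosome 5 ran from 3656005 to 3714662 (58658 bp, fold enrichment 4.19), and that of chromosome 7 from 3938387 to 3993869 (55483 bp, 3.90). On chromosome 4 it ran from 4449213 to 4500582 (51370 bp, 3.97). The longest domains of chromosomes 1, 3 and 2 had 46812, 45919 and 41120 bp, and began at 262194, 3988347 and 861870. Of these 7 domains, 6 lay in the outer parts of their chromosomes, at 2.6% and 16.2% of the length on chromosomes 1 and 2 and between 79.2% and 96.4% on chromosomes 3, 4, 5 and 7. Only that of chromosome 6 lay nearer the middle.

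Domains were also more frequent towards the ends beyond the 100 kb left out. When each chromosome was divided into 5 equal parts, the first and the last part held 24.9% and 24.6% of the domains, and the middle part held 16.6%. Within 500 kb of an end lay 24.6% of the domains and 15% of the internal sequence.

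The distance between neighbouring domains varied widely. The 282 gaps between neighbours had a median of 22420 bp, with quartiles of 3641 and 94739 bp. The shortest gap was 228 bp, and 53 gaps (18.8%) were under 1000 bp with a median of 308 bp. Between 1000 and 10000 bp lay 48 gaps, between 10000 and 100000 bp lay 114, and 67 were of 100000 bp or more. Domains with gaps under 1000 bp formed 41 runs, which held 94 of the 289 domains. The largest run comprised 6 domains on chromosome 3 from 4714932 to 4837435, where 98.4% of 122504 bp lay in domains. The next comprised 5 domains on chromosome 1 from 1102802 to 1190618 (98.9% of 87817 bp), and a run of 4 on chromosome 5 from 300915 to 401897 followed (98.7% of 100983 bp). Among the short gaps, 3 touched a protein-coding gene, 7 held part of a WT replicate 1 peak and 5 part of a ΔlaeA replicate 1 peak. Of the 7 short gaps on the part of chromosome 1 that the ΔlaeA replicate 2 list covers, 3 lay wholly under a single peak of that list. At these 3 places, the break between domains in WT replicate 2 had no counterpart in ΔlaeA replicate 2.

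The longest stretches without a domain were found on chromosome 7 from 1417721 to 2627298 (1209578 bp), on chromosome 1 from 8519699 to 9712790 (1193092 bp) and on chromosome 2 from 3443995 to 4559455 (1115461 bp). Chromosome 6 had no stretch without a domain over 377811 bp between its first and last domain. In windows of 500 kb, 15 of 81 held no domain base, and 3 had over 40% of their bases in domains. These were chromosome 5 from 500001 to 1000000 (45.5%) and chromosome 6 from 500001 to 1000000 (42.7%) and from 2500001 to 3000000 (42.3%).

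Fold enrichment, the ratio of the fragment pileup at a peak's summit to its local background, was between 2.21 and 4.97 in the domains with a median of 3.28. The shorter internal peaks had a median of 2.00 and a range of 1.19 to 4.59. A fold enrichment of at least 3 was reached by 207 domains (71.6%) and by 221 of the shorter internal peaks (7.89%). By length class, the median went from 1.60 in peaks under 1000 bp to 3.07 in domains of 10000 to 15000 bp, and was 3.52 and 3.53 in the classes of 20000 to 30000 bp and of 30000 bp or more. Over the 289 domains, fold enrichment and length had a Spearman rho of 0.35, and over the 2800 shorter peaks one of 0.78. Within the 7 chromosomes the rho over domains ranged from 0.19 to 0.56. All points share 1 library, and longer peaks have more positions for a maximum. The correlations and the medians by length class are therefore a description only. The local background at the summit was within 0.5 of its lowest value, 97.9, in 219 of the domains, and its highest value was 136. Summits had no preferred place, with a median position of 49.7% of the domain's length and 18.3% of summits within 10% of the length from either border.

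The domain of highest fold enrichment lay on chromosome 5 from 224882 to 237043 (12162 bp, 4.97, pileup 490). It was followed on chromosome 6 by the domains from 2051239 to 2064670 (13432 bp, 4.73) and from 3478050 to 3503714 (25665 bp, 4.67). The lowest value, 2.21, was found on chromosome 7 from 3707583 to 3717887. None of the 3 strongest domains was the longest of its chromosome.

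**Figure D2:**
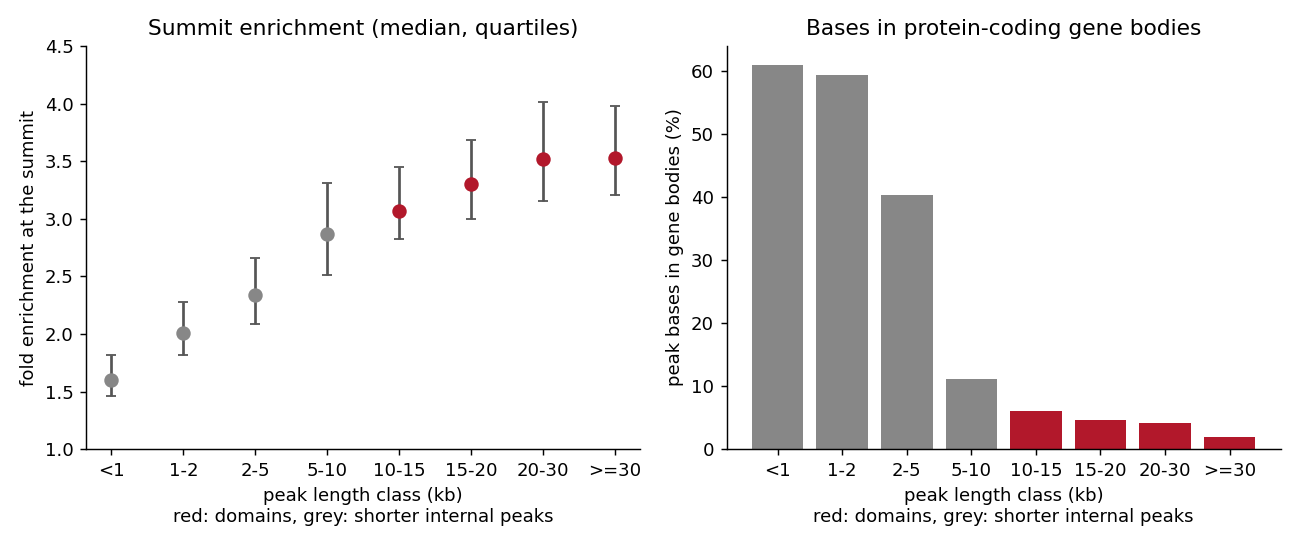
Internal peaks of WT replicate 2 by length class (grey: shorter peaks, red: domains). Left, the median fold enrichment at the summit with its quartiles, which goes from 1.60 to 3.53. Right, the percentage of peak bases in protein-coding gene bodies, which goes from 60.9% in the shortest class to 1.92% in the longest.

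The domains were nearly free of genes. Protein-coding gene bodies of the RefSeq table of assembly ASM22609v1 took up 4.19% of the domain bases, 34.4% of the bases of shorter internal peaks and 59.2% of the internal sequence outside WT replicate 2 peaks. The share was 6.13% in domains of 10000 to 15000 bp and 1.92% in those of 30000 bp or more. No gene at all was touched by 179 domains (61.9%). Because the lists name no build, the domains were also shifted along the chromosomes. The share was 4.23% and 4.35% after shifts of 1000 bp to the left and right, 12.5% and 12% after 10000 bp and 35.8% and 34.4% after 50000 bp, so the gene-poor sequence coincided with the domains at the scale of kilobases.

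The domains were also looked at from the side of the sequence between genes. Between protein-coding genes there were 8303 internal stretches with a median length of 865 bp. Of the 178 stretches of at least 20000 bp, 155 (87.1%) held part of a domain, and 58.9% of their bases lay in domains. As domains have at least 10 kb, they can lie free of genes only in long stretches, so these shares are a description. The longest, 172860 bp on chromosome 1, held 6 domains on 76.8% of its length. The next, 121067 bp on chromosome 6, was filled to 97.8% by 2 domains, among them the longest of the genome. A long stretch without genes was not always marked in this way. One of 111171 bp on chromosome 2 had 2.7% of its bases in a domain, and one of 95411 bp on chromosome 7 had none.

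Only 168 of the 9097 protein-coding genes touched a domain, and 117 lay wholly inside one. The genes wholly inside were short, with a median of 618 bp against 1751 bp in the 8566 other internal genes, and 55 of them (47.0%) were under 500 bp, against 3.95% of the others. Short genes fit wholly inside a domain more easily than long ones, so this choice of genes favours them. Of 192 tRNA genes, 1 touched a domain. The gene laeA (MYCTH_2294559) carried no peak in any list and lay 183302 bp from the nearest domain, which ran on chromosome 1 from 1158477 to 1190618. The absence of peaks there does not check the deletion.

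Gene descriptions were at hand for part of the genome and covered 67 of the 168 genes, 24 of them with an entry. Among these 24, 8 were described as reverse transcriptases, the enzymes that copy retrotransposon RNA into DNA, and 2 as integrases, which insert such copies. All 10 lay wholly inside a domain and were between 168 and 366 bp long. They include MYCTH_2053143 (210 bp, in the domain on chromosome 1 from 9858093 to 9889094), MYCTH_2052313 (168 bp, from 10323971 to 10338305) and MYCTH_2050561 (366 bp, from 10376508 to 10391572). The following were named after their values were seen. The integrase gene MYCTH_2069012 (195 bp) lay in a domain of 66398 bp on chromosome 6. Of the 3 genes described as CCHC-type zinc fingers, a motif found among others in retroviral and retrotransposon Gag proteins, the longest was MYCTH_2054216 (765 bp). MYCTH_2060218 (270 bp) was described as a CENP-B protein, a family related to the pogo transposases. The remaining entries were of other kinds and mostly crossed a border of their domain, such as the major facilitator gene MYCTH_2063854 with 98.2% of its body inside, MYCTH_108475 of the same family with 50.5%, and the endoglucanase gene MYCTH_109444 with 7.4%. MYCTH_117478, described as a fungal transcriptional regulator, is annotated over 19477 bp, and 16675 bp of it made up an entire domain on chromosome 7 from 1401046 to 1417720. Descriptions were held for too few genes to say whether any kind is more frequent in domains.

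The longest domains held few genes. The domain of 93549 bp on chromosome 6 touched 1 gene, MYCTH_2310757, with 77.0% of its body. That of 58658 bp on chromosome 5 held MYCTH_2129393 (1251 bp), that of 46812 bp on chromosome 1 held MYCTH_2054510 (2837 bp), and that of 45919 bp on chromosome 3 held MYCTH_80299 and MYCTH_2061412 (690 and 222 bp). The longest domains of chromosomes 2, 4 and 7 touched no gene. The strongest domain, on chromosome 5, held MYCTH_2128605 (903 bp) wholly and MYCTH_2307928 with 73.8% of its body. No description was at hand for these 7 genes.

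The replicate 1 lists and ΔlaeA replicate 2 were not used to choose the domains and show what other libraries had there. A WT replicate 1 peak lay in 263 of the 289 domains (91.0%, exact binomial 95% interval 87.1 to 94.0%). A ΔlaeA replicate 1 peak lay in 236 (81.7%, 76.7 to 86.0%). The intervals cover counting only. In bins of 10 kb outside domains, the shares were 35.0% for WT replicate 1 and 23.1% for ΔlaeA replicate 1. As domains are longer than such bins, they were also cut into 452 tiles of 10 kb, of which 84.7% and 61.5% held a peak of the respective list. In bins outside domains with no WT replicate 2 peak, the shares were 9.41% and 1.27%. Of the 1030 outside bins with a WT replicate 1 peak, 171 held no WT replicate 2 peak. For ΔlaeA replicate 1 it was 23 of 680 bins. Most outside bins with a replicate 1 peak thus held another WT replicate 2 peak, and such peaks were not particular to domains. Of the 2800 shorter internal WT replicate 2 peaks, mostly far shorter than a tile, 56.0% and 33.6% held one. These shares rest on weak peaks. With replicate 1 peaks of a −log10 p of at least 3 only, 30.1% of the domains held a WT and 25.3% a ΔlaeA peak. Of the 10 kb tiles 17.3% and 11.9% then held one, against 13.6% and 7.31% of the bins outside domains.

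Both lists held a peak in 224 domains, WT alone in 39, ΔlaeA alone in 12, and neither in 14. The WT list is the longer one. With equal numbers of peaks, 75.4% of the domains held a WT and 81.7% a ΔlaeA replicate 1 peak. The split is therefore not read as a difference between strains. The 14 domains without a replicate 1 peak had a median length of 13484 bp and a median fold enrichment of 3.11. The longest of them, with 27739 bp, lay on chromosome 1 from 1639647 to 1667385 and was wholly covered by a ΔlaeA replicate 2 peak. The number of peaks per domain had a median of 4 in WT replicate 1 and of 2 in ΔlaeA replicate 1, and the highest values, 35 and 18, were both found in the longest domain on chromosome 6. High numbers were also found in the longest domain of chromosome 7, with 33 and 15, and in that of chromosome 5, with 23 and 16. In contrast, the longest domain of chromosome 1 held 6 WT replicate 1 peaks and 0 ΔlaeA replicate 1 peaks, although ΔlaeA replicate 2 peaks covered 99.4% of it. The strongest domain of chromosome 5 held 10 and 9, which covered 35.7% and 22.6% of it.

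**Figure D3:**
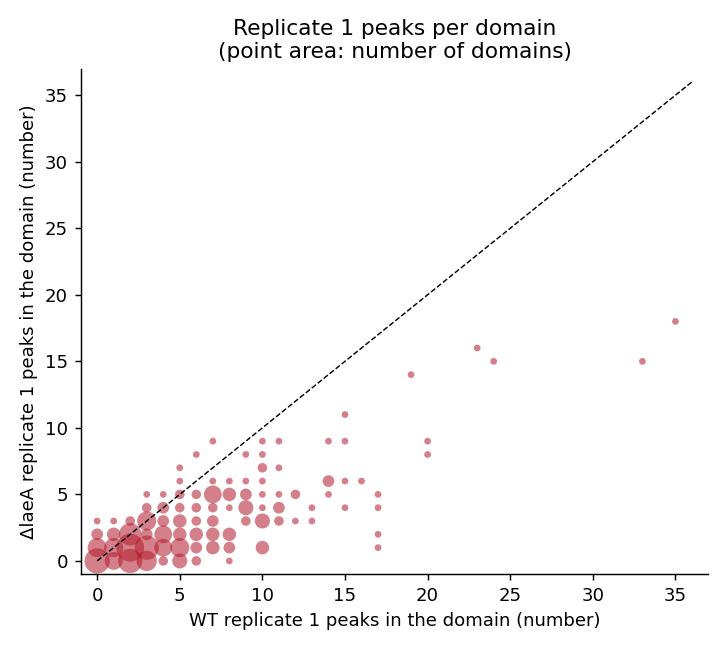
Number of ΔlaeA replicate 1 peaks against WT replicate 1 peaks that overlap each of the 289 domains, with point area in proportion to the number of domains and a dashed line of equal numbers. Most domains lie below the line, and the highest point is the domain on chromosome 6 with 35 and 18 peaks.

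The peaks of replicate 1 covered little of the domains. WT replicate 1 peaks covered 9.28% of the domain bases, against 18.1% of the shorter internal peaks and 2.24% of the internal sequence outside WT replicate 2 peaks. For ΔlaeA replicate 1 the values were 3.81%, 6.46% and 0.969%. Both lists were thus densest in the shorter peaks, lower in the domains and lowest in unmarked sequence. Coverage by replicate 1 peaks had a Spearman rho of −0.01 (WT) and 0.01 (ΔlaeA) with the domain's fold enrichment over 289 domains, which share their libraries. Peaks of replicate 1 inside domains were also weaker in WT, with a median −log10 p of 1.8 against 2.2 outside domains, whereas in ΔlaeA replicate 1 both medians were 2.1.

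Between strains, 1580 WT and 740 ΔlaeA replicate 1 peaks had their midpoint in a domain, a ratio of 2.14. Outside domains there were 3680 and 1951, a ratio of 1.89. More WT than ΔlaeA peaks were found in 213 domains, fewer in 27 and equal numbers in 49. The WT list is the longer one, and when only its 3054 strongest peaks were kept, as many as the ΔlaeA list holds, the ratio turned to 0.87 in domains (641 against 740 peaks) and was 1.07 outside (2078 against 1951). Within domains, 83343 bp lay under replicate 1 peaks of both strains, a share of 15.5% for WT and of 37.8% for ΔlaeA peak bases. Outside domains the shares were 19.8% and 51.5%. With 1 list per strain over the whole genome, no test between strains was possible.

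Genes inside the domains were set against all genes. A WT replicate 1 peak lay in 46 of the 117 genes wholly inside a domain (39.3%), against 19.3% of the 9097 protein-coding genes. A ΔlaeA replicate 1 peak lay in 29 of them (24.8%), against 8.89% of all genes. Both strains had a peak in 25 of these genes, WT alone in 21 and ΔlaeA alone in 4. The WT list is the longer one and also had a peak in more of all genes, 1755 against 809. The split is therefore not read as a strain difference in domain genes.

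Across the borders of the domains, gene content and replicate 1 peaks changed over a few kilobases. Between 10 and 20 kb outside a border, 27.7% of the bases lay in gene bodies and 64.4% under a WT replicate 2 peak, so domains were surrounded by further marked sequence. In the last 2 kb outside 16.1% of the bases lay in genes, in the first 2 kb inside 9.31%, and from 5 kb inward 3.19%. WT replicate 1 peaks covered 12.2% of the first 2 kb inside and 7.69% from 5 kb inward, and ΔlaeA replicate 1 peaks 6.62% and 2.65%. Values from 5 kb inward leave out the shorter domains, as the number of borders counted falls from 578 to 532 and then to 200. In the last step with all 578 borders, 4500 to 5000 bp inside, 3.32% of the bases lay in genes. WT replicate 1 peaks covered 8.6% of this step and ΔlaeA replicate 1 peaks 3.29%. ΔlaeA replicate 1 was highest directly inside the border, with 10.3% of the first 500 bp against 6.29% of the last 500 bp outside. WT replicate 1 covered 14.8% and 10.2% of these steps, but had values of up to 15% between 2 and 5 kb outside the border as well. By peak number, 23.4% of the WT and 30.7% of the ΔlaeA replicate 1 peaks in domains lay within 10% of the domain's length from a border, against 17.9% and 15.5% in a central part of the same total length.

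**Figure D4:**
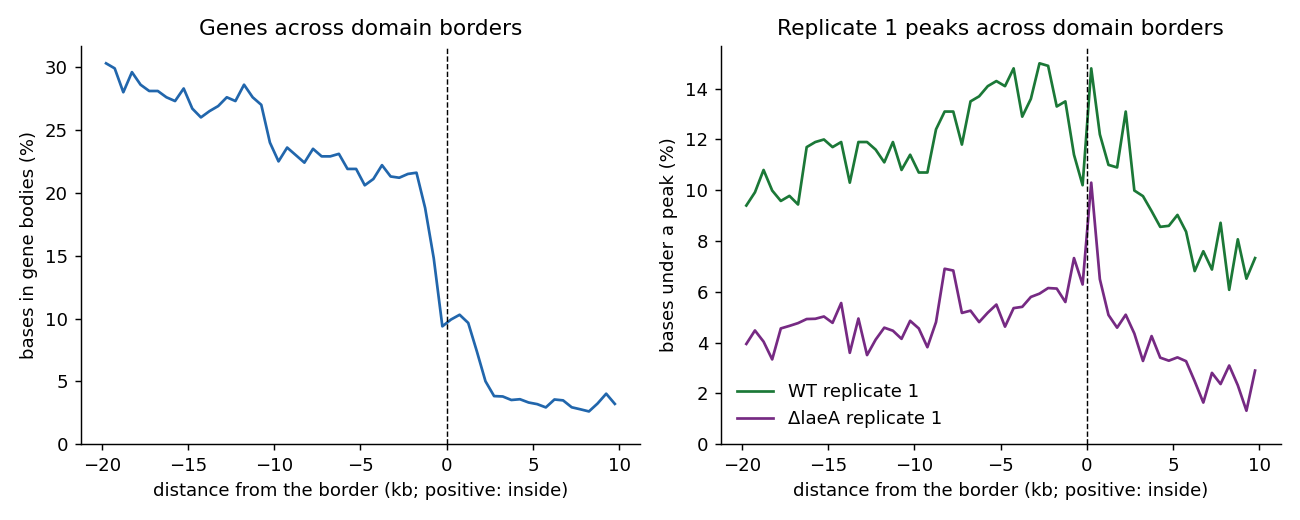
Percentage of bases in protein-coding gene bodies (left) and under a replicate 1 peak (right) in 500 bp steps around both borders of the domains, with the border at 0 and the inside at positive distances. Gene content drops at the border to 3.19% from 5 kb inward, ΔlaeA replicate 1 is highest in the first 500 bp inside (10.3%), and WT replicate 1 has 14.8% there and like values some kilobases outside. Values outside the border include bases of neighbouring domains, and those from 5 kb inward leave out the shorter domains.

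On the covered part of chromosome 1, 21 domains with 391287 bp could be compared with ΔlaeA replicate 2. Peaks of this list covered 99.1% of the domain bases, between 94.2% and 100% of each domain, and 9 domains were covered to the last base. Of the bases of the 172 shorter internal peaks in the same part, 85.8% were covered. The domains were therefore present in this ΔlaeA library. Of the 23 internal peaks of at least 10 kb that this list held there, 18 overlapped a domain. Some domains were joined, since the longest of the 23 peaks ran from 309554 to 367504 (57951 bp) and took in 2 of the domains. In the same 21 domains, WT replicate 1 peaks covered 4.68% and were found in 16, and ΔlaeA replicate 1 peaks covered 2.52% and were found in 12.

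The highest fold enrichment of a ΔlaeA replicate 2 peak over the domain was above the WT replicate 2 value in 20 of the 21 domains. The median was 4.89 in ΔlaeA (range 2.32 to 5.94) and 3.55 in WT (2.72 to 4.27), so the ranges overlapped. The largest values in ΔlaeA were 5.94 from 2574429 to 2585167, where WT had 3.90, and 5.80 from 262194 to 309005, where WT had 3.82. The exception was the domain from 2797826 to 2808855, which touched 4 genes and had 2.72 in WT and 2.32 in ΔlaeA. Of the 172 shorter internal peaks there, 142 were overlapped by a ΔlaeA replicate 2 peak. Of these 142, 82 (57.7%) were higher in ΔlaeA, with medians of 2.12 in WT and 2.15 in ΔlaeA. The shorter peaks without a ΔlaeA replicate 2 peak have no value to compare, so this share leaves out places where ΔlaeA may be lower. The lowest background was 97.9 in WT replicate 2 and 95.8 in ΔlaeA replicate 2. The 21 domains lie under 25 ΔlaeA peaks, some of which span more than 1 domain and lend them the same value. Each strain has 1 library here and neither list is scaled to the other, so this difference was not tested.

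**Figure D5:**
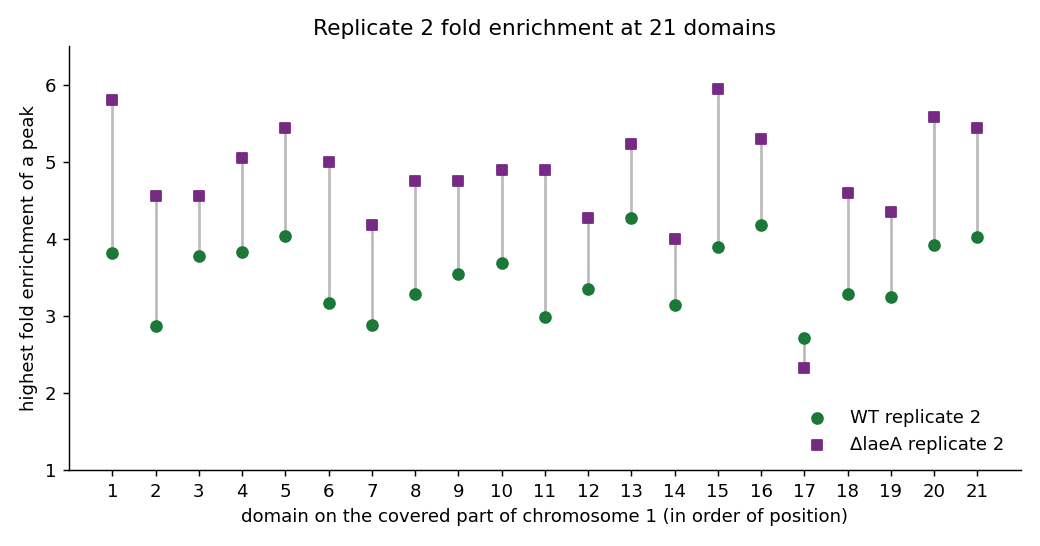
Highest fold enrichment of a peak at each of the 21 domains on the covered part of chromosome 1, in order of position, for WT replicate 2 (green circles) and ΔlaeA replicate 2 (purple squares), joined by grey lines. ΔlaeA is higher in 20 of the 21 domains, and domain 17 is the exception.

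To set the 3 lists that did not choose the domains side by side, the density of peak bases in domains was divided by that in the internal sequence outside domains on the covered part of chromosome 1. For WT replicate 1 the ratio was 1.40. The ΔlaeA lists had ratios of 2.55 in replicate 1 and 7.74 in replicate 2. Over the internal sequence of all chromosomes, WT replicate 1 peaks covered 9.28% of the bases in domains and 5.35% outside. For ΔlaeA replicate 1 these values were 3.81% and 2.06%, so the replicate 1 lists differed less there than on this part of chromosome 1. The mean log2 ratio was 1.60 ± 1.25 (SD, n = 3 lists) and was above 0 in 3 of 3 lists (exact sign-flip permutation test, two-sided p = 0.25, the smallest this design allows). The lists come from both strains and differ in kind, so neither the SD nor the p measures a spread between replicates of a condition. A log2 ratio above 0 in all 3 lists did not hold under all settings. With domains of at least 20000 bp, 1 of 3 lists was above 0 (mean 0.65, exact permutation p = 1). With domains of at least 15000 bp it was 2 of 3 (mean 0.83, exact permutation p = 0.75). With a −log10 p of at least 3 in replicate 1 it was 2 of 3 (mean 0.75, exact permutation p = 0.75), with WT replicate 1 at −2.73. Against the other WT replicate 2 peaks in place of all remaining sequence, it was 1 of 3 and the mean turned to −0.68 (exact permutation p = 0.5). Without ΔlaeA replicate 2, the mean was 0.92.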

How the data were processed

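Peak lists of 4 H3K9me3 ChIP libraries were analysed; for the inputs no list was used. Before deposit, the authors' reads were trimmed and aligned as pairs by Bowtie2, and each library's uniquely mapped reads went into MACS2 (per the labels Trimmomatic 0.36, Bowtie2 2.3.4.3 and MACS2 2.1.2, whereas the methods name another trimming tool and other Bowtie2 and MACS2 versions). The genome build is not given in the sources used here. The deposited pileup is a signal, the fold enrichment (deposited too) divides summit pileup by local background, a ratio, and deposited significance is given as −log10 of MACS2's p-value and of its q-value, in columns identified by their order since their header is damaged. The replicate 1 pileups had been rescaled.

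Entries of 1 peak were joined, keeping the highest score. Overlap meant at least 1 bp, and peak numbers went by midpoint where stated. The RefSeq table (ASM22609v1) gave 9097 protein-coding genes. Gene descriptions came from the held part of the study's gene table (1266 genes), used for names only. The domain rule and the product classes were chosen with earlier results of these data known. Domains named are the longest per chromosome, the 3 of highest fold enrichment and those with most replicate 1 peaks; genes named lie in these or, up to 3, match a product class. The counting was tested on simulated data. The smallest p of the sign-flip test is 0.25. Alternatives were other length limits, end distances, joined peaks, stricter scores, other overlaps and equal peak numbers. Scripts ran in Python 3.11.15 with scipy 1.17.1, pandas 2.3.3, numpy 2.4.6 and, for plots, matplotlib 3.10.9.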

Additional observations from a re-analysis of the deposited data

How the results depend on the processing

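Of 119 values recomputed for 10 results, 74 stayed within the spread, 42 moved and 3 reversed; the spread was the SD over chromosomes, over the 21 domains of chromosome 1 for the ΔlaeA replicate 2 coverage, the binomial interval for shares of domains, and 1.5 times for the number of domains. For the mean log2 ratio, a value counted as unmoved when its direction was kept. Limits of 5000, 15000 and 20000 bp gave 617, 169 and 100 domains. Limits of 5000, 8000, 15000 and 20000 bp gave 63.7%, 52.3%, 33.6% and 24.3% of the peak bases, median gaps of 4580, 13558, 59334 and 131025 bp, 80.4%, 86.7%, 95.9% and 96.0% of domains with a WT replicate 1 peak, and 65.3%, 74.4%, 87.6% and 91.0% with a ΔlaeA replicate 1 peak. At 20000 bp the rho of fold enrichment with length was 0.14, and at 5000 bp 6.20% of the bases lay in genes. With WT replicate 2 peaks joined over gaps of up to 1000 bp, 256 domains held 72.9% of the peak bases, with a median gap of 35603 bp, a rho of 0.51, 91.8% with a ΔlaeA replicate 1 peak, 96.2% of bases under ΔlaeA replicate 2 and 8.26% in genes. An overlap of 200 bp gave 86.2% and 66.4% of domains with a WT and a ΔlaeA replicate 1 peak, and a −log10 p of at least 3 gave 30.1% and 25.3% and a strain ratio of 1.5. Equal numbers of replicate 1 peaks gave 75.4% for WT and reversed the strain ratio to 0.87, and the replicate 2 lists on chromosome 1 reversed it to 0.84. Against other WT replicate 2 peaks, the mean log2 ratio reversed to −0.68. It was 0.83 and 0.65 at limits of 15000 and 20000 bp, 0.75 with a −log10 p of at least 3 and 1.41 with equal peak numbers (exact permutation p of 0.75, 1, 0.75 and 0.5), where 2, 1, 2 and 2 of 3 lists were above 0. Leaving out 1 list gave 0.92 to 2.15 (exact permutation p of 0.5, the smallest for 2 lists). With 500 bp added to either side of genes, 6.60% of the bases were genic. The stricter score for 10 kb tiles and bins and the shifts were added after the data were examined. The shifts gave 35.8%, 22.2%, 12.5% and 7.36% to the left by 50000, 20000, 10000 and 5000 bp and 34.4%, 20.5%, 12% and 7.61% to the right. The cause of these moves was not tested. Other distances from the ends and a −log10 q of at least 5 moved no result. No paired analysis was possible because each result comes from no test between strains, and WT replicate 2 itself chose the domains. GC content was not run for want of sequence. The unknown depth and the weak replicate 1 calls limit what the absence of a peak can show.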

Other observations

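Peaks just under the length limit shared much with the domains. The 328 internal WT replicate 2 peaks of 5000 to 10000 bp had a median fold enrichment of 2.87 and 11.2% of their bases in gene bodies, against 40.3% for the 655 peaks of 2000 to 5000 bp and 6.13% for the 120 domains of 10000 to 15000 bp. WT replicate 1 peaks covered 10.9% of them, against 22.3% of peaks of 2000 to 5000 bp and 9.94% of the shortest class of domains. The 21 peaks of at least 10 kb near chromosome ends had a median length of 16344 bp and a median fold enrichment of 4.28.

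Domains with and without genes differed in their replicate 1 peaks. In domains that touched no gene, WT replicate 1 peaks covered 7.58% and ΔlaeA replicate 1 peaks 2.75% of the bases. In domains that touched a gene, the values were 11.5% and 5.21%.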
